A study of Mus musculus with 6 samples.

Results

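The genes described here encode the soluble machinery of protein synthesis: the initiation, elongation and release factors that drive the ribosome, and the aminoacyl-tRNA synthetases that charge each tRNA with its amino acid. They were chosen by gene symbol alone, as the names that start with Eif1 to Eif6, Eef1 or Eef2, the release factor names Etf1, Gspt1 and Gspt2, and the synthetase names of the type Aars, Aars2, Farsa or Eprs, with Eif2ak2 and Eif2ak3 left out. Of the 9295 genes in the deposited table, 80 met this rule: 42 named as initiation factors or their regulators, 11 named as elongation or termination factors or their modifiers, 18 cytosolic synthetases and 9 mitochondrial synthetases. Members of the same families outside this table were not analysed here.

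Translation starts when the initiator tRNA is brought to the small ribosomal subunit by eIF2, which needs the exchange factor eIF2B to be reloaded with GTP, while eIF4E binds the cap of the messenger RNA and eIF3 and eIF4G join the parts. Kinases that phosphorylate eIF2 turn eIF2B off, which slows most translation and favours that of ATF4, a transcription factor known to activate genes of amino acid supply and many cytosolic synthetase genes. In blood cells the kinase encoded by Eif2ak1 senses heme and is best known from red cell precursors, and the one encoded by Eif2ak4, known as GCN2, senses uncharged tRNA. Demand for translation factors is known to differ between dividing leukemic cells and maturing granulocytes.

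RNA came from bone marrow of mice with acute myeloid leukemia, with a cell type given in the labels as Leukemia. There were 3 libraries labelled KO, of the genotype PAPOLA KO, and 3 labelled Con, of the genotype PAPOLA flox/flox, a Papola gene flanked by recombination sites. The sources used here name no Cre line, no leukemia driver, no treatment, no sex and no age, and do not state whether a group holds 3 animals or repeat samples of fewer. P-values therefore reflect only how these libraries spread, which could be a technical spread.

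Expected counts, which are estimated reads per gene, summed to 8875022 to 9768143 in the libraries labelled KO and to 11253932 to 11436216 in those labelled Con. Levels are given as CPM, the counts of a gene relative to the scaled library total after TMM scaling. That scaling assumes that most genes do not differ between libraries, while 82.0% of all tested genes were called as changed here. Papola itself, which encodes the nuclear poly(A) polymerase alpha, had 339.2 ± 23.8 CPM in the libraries labelled KO, against 290.8 ± 6.42 CPM in those labelled Con (SD, n = 3 each), a small rise with TMM scaling (log2 fold change 0.22, adjusted p = 0.0291) and a value of -0.13 with library size only. Counts over the deleted part of the gene were not analysed here, so this value does not check the labels, and each direction below rests on the labels alone. The pan-leukocyte gene Ptprc was at 1024.4 ± 121.7 CPM in the libraries labelled KO and 461.1 ± 27.6 CPM in those labelled Con. The libraries labelled KO held far more counts of 10 late neutrophil markers (14.6% to 16.8% of counts, against 0.271% to 0.278% in those labelled Con) and of 9 erythroid markers (1.49% to 2.16%, against 0.0141% to 0.024%). Their 6 macrophage markers were lower (0.0347% to 0.0651% of counts, against 2.22% to 3.18%). Of 6 stromal and endothelial markers 5 were higher in KO, with Sele at a count of 0 in every library labelled Con, and 1, Mmp13, was lower, so that their sum was 0.0251% to 0.0458% of counts against 0.129% to 0.161%. Of 6 T and NK cell markers 5 were higher in KO and Gzmb was lower, with sums of 0.00644% to 0.00901% against 0.0274% to 0.0486%. Of 4 B cell markers 3 were higher (0.00733% to 0.0199%, against 0.00352% to 0.00593%). Con replicates 2 and 3 differed from each other far less than other pairs of a group did (chi-square per degree of freedom 1.68, against 17.7 to 23.7), and counts with both summed as 1 sample are given beside the main ones. In such bulk samples, fewer cells of a type and less RNA per cell cannot be told apart.

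Most of the translation genes differed between the groups, and the falls outnumbered the rises. Of the 80 genes, 77 passed the filter on low counts, and 60 of these (77.9%) changed at an adjusted p under 0.05 (edgeR quasi-likelihood test, Benjamini-Hochberg adjustment over all 8358 genes tested), a share near the background of 82.0% of all tested genes. In the libraries labelled KO 44 were lower (57.1%, where 42.4% of all tested genes were lower) and 16 were higher (20.8%, against 39.6%). The median log2 fold change, KO less Con, was -0.31 over the 77 members and -0.06 over all tested genes. The groups did not overlap in 65 of the 77 members, where 84.5% of all tested genes had no overlap. At least 2-fold falls numbered 14 (background 23.8%) and at least 2-fold rises 5 (background 22.8%). With Con replicates 2 and 3 summed, 40 were lower and 13 higher. In that setting 6557 of all 8419 genes tested were called, 48.8% of them higher.

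The balance of falls and rises depended on the scaling, which moved every gene alike. When libraries were scaled by their totals alone, the median of all tested genes shifted by -0.36, and 60 members were lower (background 53.6%) and 7 higher (background 29.8%), so that falls made up 89.6% in place of 73.3% of the members that changed. Upper-quartile factors gave 49 lower (background 45.2%) and 13 higher (background 37.2%), and RLE factors 41 lower (background 40.6%) and 16 higher (background 40.9%). Values below are from TMM scaling, and a direction that turns under another scaling is named where it is given.

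**Figure D1:**
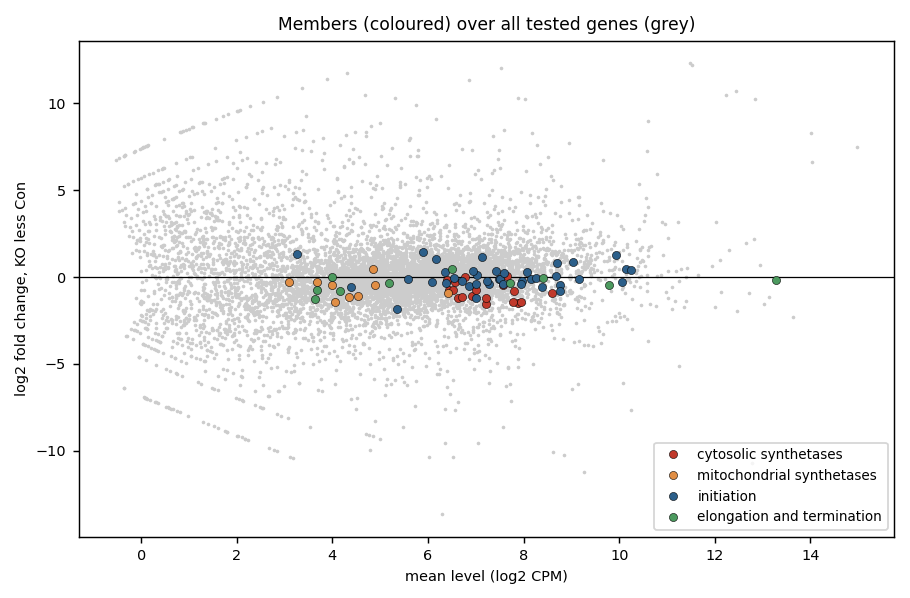
Log2 fold change (KO less Con) of each tested gene against its mean level in log2 CPM, with all 8358 tested genes in grey and the 77 tested members coloured by class. The members lie between -1.84 and 1.42, inside the range of all tested genes, with most cytosolic synthetases below 0.

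As a share of all counts in the deposited table, the 80 genes took 2.09%, 2.33% and 2.24% in the libraries labelled KO, against 3.36%, 2.97% and 2.95% in those labelled Con. Genes absent from that table, such as Eef2, do not enter these sums. The groups did not overlap, and the exact two-sided permutation test gave p = 0.1, the smallest that 3 against 3 libraries allow. The difference of the means was -0.877 percentage points, and -0.226 against TMM-scaled totals. Much of this sum was Eef1a1, which encodes the main form of elongation factor eEF1A. Without it the shares were 1.34%, 1.44% and 1.4% in the libraries labelled KO, against 2.03%, 1.85% and 1.84% in those labelled Con. The cytosolic synthetases summed to 0.186%, 0.186% and 0.167% of counts, against 0.474%, 0.407% and 0.406%, and the initiation genes to 1.02%, 1.11% and 1.08%, against 1.3%, 1.22% and 1.2%. Within each library, the ratio of synthetase counts to initiation factor counts, which no scaling touches, was 0.183, 0.168 and 0.154 in the libraries labelled KO, against 0.363, 0.334 and 0.337 in those labelled Con. Synthetase counts were thus lower relative to initiation factor counts in every library labelled KO.

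The cytosolic synthetases fell almost as a block. These enzymes join amino acids to their tRNAs in the cytosol, most of them a single amino acid. Of the 18 genes, 15 fell (83.3%, where 42.4% of all tested genes were lower), none rose and 3 did not pass the test, with a median log2 fold change of -0.87. At least 2-fold falls were seen for 8 of them, where 23.8% of all tested genes fell that far. The 15 calls and their direction held in each of the 16 alternatives, and with library size only 17 of 18 were lower (background 53.6%), with a median of -1.22. In the same libraries the late neutrophil markers took 14.6% or more of counts and the macrophage markers 0.0651% or less, and their part in these falls was not tested.

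Iars (gene ID 105148), the isoleucine enzyme, fell furthest. Its level was 83.4, 76.6 and 67.6 CPM in the libraries labelled KO, against 242.0, 212.7 and 205.4 CPM in those labelled Con. Every library labelled KO was below every library labelled Con, a 2.90-fold lower level (log2 fold change -1.54, SE 0.10, adjusted p = 7.32e-07). Sars (20226), the serine enzyme, had 120.4, 120.2 and 130.4 CPM against 361.6, 331.9 and 351.9 CPM (log2 fold change -1.50, SE 0.08, adjusted p = 1.72e-07). Eprs (107508), a fused protein that charges both glutamate and proline, had 121.8, 115.1 and 112.3 CPM against 337.3, 310.2 and 308.8 CPM (log2 fold change -1.45, SE 0.08, adjusted p = 2.05e-07). Both were lower in all 3 libraries labelled KO, with a narrow spread in each group. Aars, the alanine enzyme, had 145.0, 136.8 and 122.1 CPM against 386.0, 345.3 and 348.1 CPM, at -1.42.

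Falls of about 2-fold or somewhat more were seen for the arginine enzyme Rars (-1.23), the cysteine enzyme Cars (-1.20), the methionine enzyme Mars1 (-1.14) and the threonine enzyme Tars (-1.09), with adjusted p-values of 5.55e-06 or less. Nars (70223), the asparagine enzyme and the one with the most counts, had 266.9, 281.8 and 245.8 CPM in the libraries labelled KO, against 544.8, 486.3 and 498.3 CPM in those labelled Con. No library labelled KO came near the lowest one labelled Con (log2 fold change -0.94, SE 0.09, adjusted p = 6.19e-06). A group of 4 enzymes fell by less: Gars for glycine (-0.79), Yars for tyrosine (-0.76), Wars for tryptophan (-0.75) and Lars for leucine (-0.73). Kars, the lysine enzyme, followed at -0.47 (161.8, 161.7 and 153.9 CPM against 239.8, 209.1 and 213.2 CPM, adjusted p = 0.000456). In 17 of the 18 genes Con replicate 1 was the highest of the 3 libraries labelled Con, and the libraries labelled KO still lay below the other two wherever a fall was called.

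The enzymes for phenylalanine, histidine and aspartate stood at the other end of the range. Phenylalanyl-tRNA synthetase is built from alpha and beta chains encoded by Farsa and Farsb. Farsb had 83.0, 87.1 and 83.6 CPM in the libraries labelled KO, against 107.5, 103.4 and 97.9 CPM in those labelled Con (-0.28, SE 0.08, adjusted p = 0.00687). Farsa had 82.0, 79.1 and 75.3 CPM against 97.2, 83.5 and 88.5 CPM and did not pass (-0.19, 95% interval -0.38 to 0.01, adjusted p = 0.0698), though its groups did not overlap. The ratio of Farsa to Farsb counts was 0.989, 0.908 and 0.900 in the libraries labelled KO, against 0.904, 0.807 and 0.904 in those labelled Con, so the groups overlapped in this ratio.

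Hars, the histidine enzyme, had 113.5, 106.5 and 108.5 CPM in the libraries labelled KO, against 117.4, 107.3 and 106.1 CPM in those labelled Con, with overlapping groups (-0.01, 95% interval -0.19 to 0.17, adjusted p = 0.903). Scaled by library totals alone it passed as lower (-0.37, adjusted p = 0.00286), and with RLE factors its value was 0.04. Dars, the aspartate enzyme, had 226.8, 222.3 and 176.3 CPM against 212.2, 190.7 and 186.7 CPM (0.09, 95% interval -0.16 to 0.33, adjusted p = 0.483; -0.27 with library size only). KO replicate 3 lay below the libraries labelled Con and the other two above them.

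**Figure D2:**
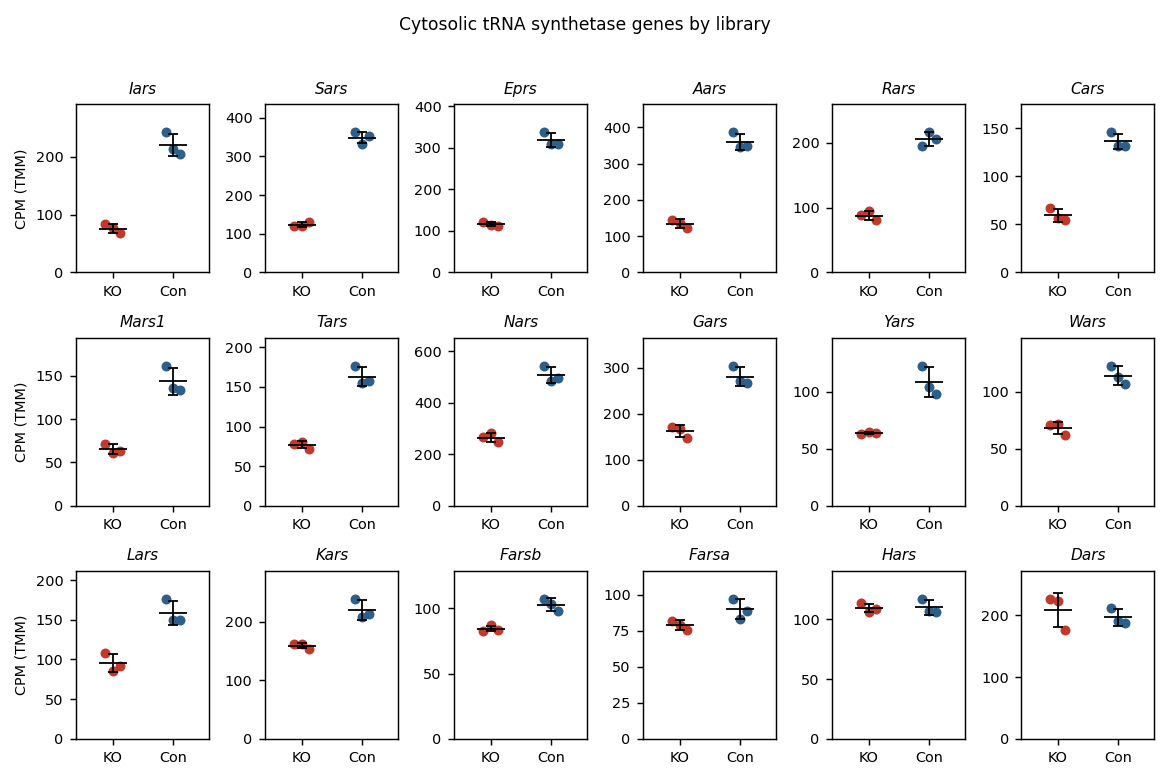
CPM (TMM-scaled) of the 18 cytosolic synthetase genes in each library, ordered by log2 fold change, with KO left and Con right in each panel; the horizontal tick and bar are the mean and SD over 3 libraries. The groups are apart in all panels but those of Hars and Dars, and the gap narrows from Iars (2.90-fold lower in KO) to Kars.

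Enzymes that share a particle did not move by equal amounts. In mammals a large complex holds the synthetases encoded by Eprs, Iars, Lars, Mars1, Rars, Kars and Dars, among others, around scaffold proteins. Of these 7 genes 6 fell, where 42.4% of all tested genes were lower, and Dars did not pass, with log2 fold changes between -1.54 and 0.09. The ratio of Dars to Iars counts was 2.72, 2.90 and 2.61 in the libraries labelled KO, against 0.877, 0.897 and 0.909 in those labelled Con. The scaffold genes outside the membership rule moved little: Aimp1 was at 65.2 ± 4.58 CPM in KO and 57.1 ± 3.47 CPM in Con (0.19, adjusted p = 0.0724), and Aimp2 at 32.5 ± 2.41 and 38.0 ± 4.30 CPM (-0.23, adjusted p = 0.0855; SD, n = 3 each). With library size only the value of Aimp1 turned to -0.17. The third scaffold gene, Eef1e1, had 31.9, 31.7 and 31.4 CPM in the libraries labelled KO, against 42.3, 38.1 and 40.9 CPM in those labelled Con, a fall of 1.28-fold (adjusted p = 0.00455). Among the cytosolic synthetase genes other than these 7, Sars, Aars, Cars and Tars fell at least 2-fold as well. Nars, Gars, Yars, Wars and Farsb fell by less, and Farsa and Hars did not pass, as given above.

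Promoters of cytosolic synthetase genes are shown where they hold the core of a C/EBP-ATF response element, the kind of site through which ATF4 acts. RefSeq promoter windows (GRCm38.p6, 250 bases before to 50 after the start) were found for 62 of the 80 genes, 12 of them cytosolic synthetases. The motif TGATGNAA, on either strand, occurred in the windows of 5 of these 12 genes (41.7%), in 1 of 33 initiation genes, 1 of 8 elongation and termination genes and 0 of 9 mitochondrial synthetases. All 32851 windows of the same length held it in 3.97% of cases, and the tested genes with a window in 2.8%. A stretch of 30 bases around 1 match in each of these 5 synthetase windows is given on the gene's strand, with the match in capitals.

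Aars, chr8:111033840-111033869, plus strand, match at position 10 from the start: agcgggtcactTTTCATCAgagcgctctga
Gars, chr6:55037960-55037989, plus strand, match at position -30: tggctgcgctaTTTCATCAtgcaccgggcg
Iars, chr13:49682126-49682155, plus strand, match at position 8: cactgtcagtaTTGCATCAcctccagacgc
Tars, chr15:11399655-11399684, minus strand, match at position -15: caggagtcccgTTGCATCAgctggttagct
Yars, chr4:129189895-129189924, plus strand, match at position 4: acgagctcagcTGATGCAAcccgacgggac

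In each stretch but that of Yars, where TGATGCAA is read directly, the capitals are the motif in reverse complement. The 5 genes with a match were at log2 fold changes of -1.54 (Iars), -1.42 (Aars), -1.09 (Tars), -0.79 (Gars) and -0.76 (Yars). The 7 cytosolic synthetase genes whose windows hold none were at -1.50 (Sars), -1.45 (Eprs), -1.14 (Mars1), -0.47 (Kars), -0.28 (Farsb), -0.19 (Farsa) and 0.09 (Dars). The 2 sets overlapped in their changes, and a part of these sites in the falls was not tested. Cytosolic synthetase genes without a window are not covered. The E-box CACGTG, which MYC and related factors bind, was in the windows of 16 of the 62 members (25.8%), against 11.9% of tested genes with a window and 7.15% of all windows. Of these 16 genes, Aars, Farsb, Iars, Tars, Eef1akmt4, Eef1aknmt, Eif3a, Eif4a1, Eif4e and Eif4g1 fell. Eef2k, Eif1b, Eif3f and Eif5a rose, and Eif4h and Ears2 did not pass. Over all tested genes 42.4% were lower and 39.6% higher. The rises of Eef2k and Eif5a were not called with library size only. A part of the E-box in these changes was not tested.

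The mitochondrial synthetases, which charge tRNAs inside the organelle, also fell for the most part. Of 9 genes 6 fell (66.7%, where 42.4% of all tested genes were lower), 1 rose and 2 did not pass, with a median of -0.46. Aars2 (224805), the alanine enzyme of mitochondria, had 9.23, 8.51 and 8.11 CPM in the libraries labelled KO, against 24.4, 22.2 and 22.2 CPM in those labelled Con (-1.41, SE 0.13, adjusted p = 4.82e-06). Vars2, for valine, had 12.04, 11.6 and 12.6 CPM against 30.1, 24.1 and 27.2 CPM (-1.17), and Lars2, for leucine, 13.2, 14.8 and 15.1 CPM against 30.8, 31.7 and 29.7 CPM (-1.10). In these 3 genes each library labelled KO was below every library labelled Con by a wide margin.

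Iars2, the isoleucine enzyme of mitochondria, had 61.1, 52.7 and 61.9 CPM in the libraries labelled KO, against 109.2, 111.7 and 110.9 CPM in those labelled Con (-0.92, SE 0.09, adjusted p = 6.93e-06). Rars2 and Yars2 fell by 0.46 and 0.43 on the log2 scale, and the call of Yars2 was lost without Con replicate 2 (adjusted p = 0.0503) or Con replicate 3 (0.0771). Ears2 (-0.27, adjusted p = 0.159) and Mars2 (-0.27, adjusted p = 0.084) did not pass, with libraries of 6.69 to 14.2 CPM. Nars2, the asparagine enzyme of mitochondria, went the other way, with 30.8, 28.2 and 40.7 CPM against 25.7, 23.5 and 23.4 CPM. All 3 libraries labelled KO were above those labelled Con, with KO replicate 3 well above the other two (0.46, SE 0.14, adjusted p = 0.0135), and the call was lost with library size only (0.10, adjusted p = 0.527). The cytosolic gene for the same amino acid, Nars, fell, so that the ratio of Nars2 to Nars counts was 0.1156, 0.1002 and 0.1655 in the libraries labelled KO, against 0.0471, 0.0484 and 0.0469 in those labelled Con.

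**Figure D3:**
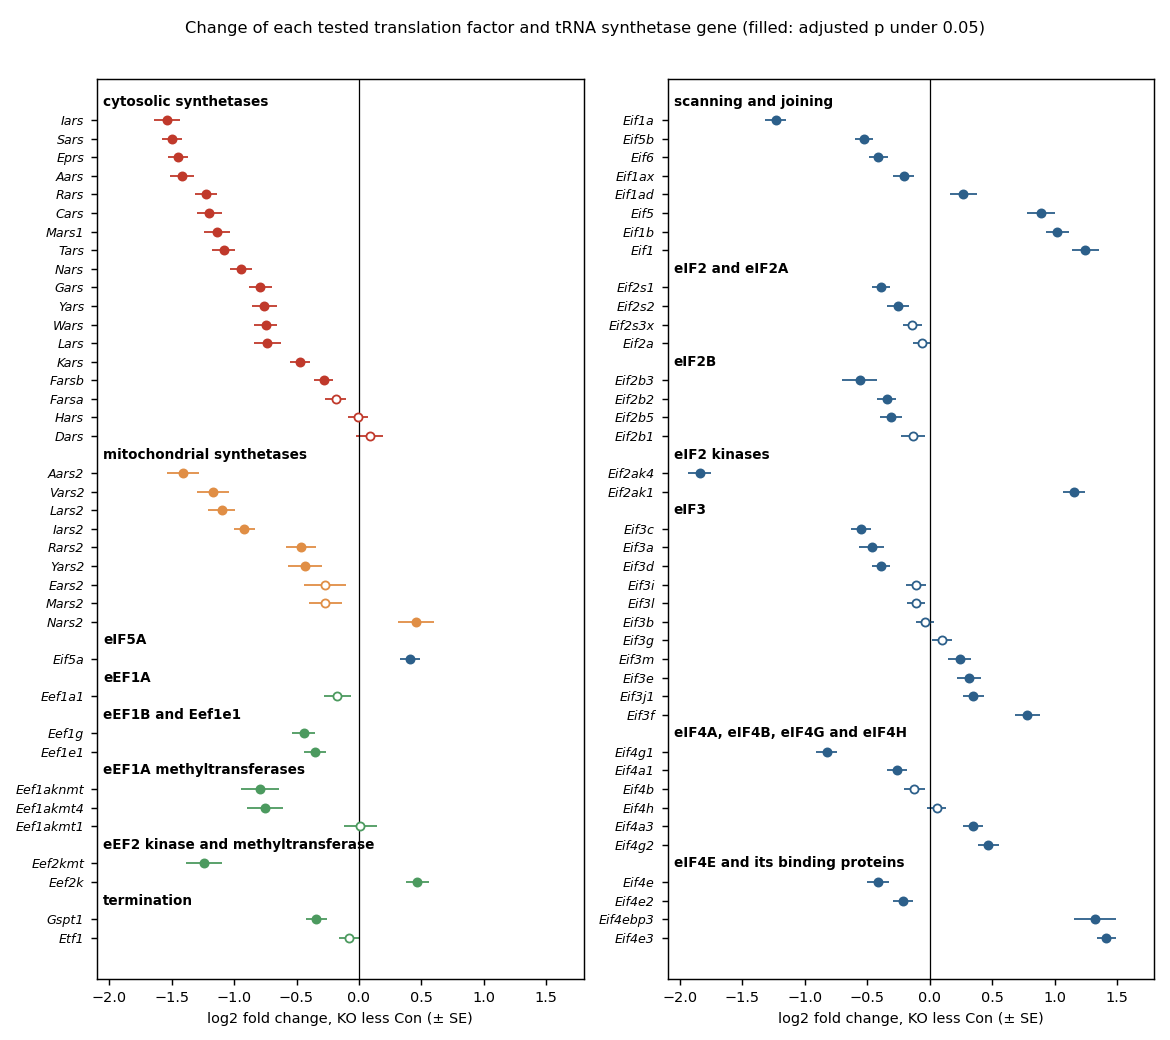
Log2 fold change (KO less Con) with its SE for the 77 tested genes, grouped by role, with filled points for an adjusted p under 0.05. Both synthetase classes lie mostly left of 0, with 15 of 18 and 6 of 9 genes lower, while the initiation factors spread to both sides, with 17 lower and 14 higher.

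The initiation genes split. Of 40 tested, 17 fell (42.5%, against 42.4% of all tested genes) and 14 rose (35.0%, against 39.6%), with a median of -0.12. Both shares were near the background. With library size only 26 fell (background 53.6%) and 7 rose (background 29.8%). With Con replicates 2 and 3 summed 13 fell and 11 rose, where 48.8% of all genes called were higher. Within several families the members moved in opposite directions. Ratios between them do not depend on the scaling, but the pairs were chosen after their values were seen.

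Start codon selection is governed by eIF1 and eIF1A, which open the small subunit for scanning. Eif1 (20918) had 1199.4, 1321.2 and 1579.1 CPM in the libraries labelled KO, against 583.6, 584.7 and 557.8 CPM in those labelled Con. Each library labelled KO held over 2-fold the CPM of any labelled Con (log2 fold change 1.25, SE 0.11, adjusted p = 4.38e-06). Its paralog Eif1b rose too, with 96.3, 106.3 and 89.2 CPM against 45.4, 49.6 and 48.7 CPM (1.02, SE 0.09, adjusted p = 4.75e-06). Eif1a (13664), which encodes an eIF1A protein, fell to 71.6, 80.9 and 74.8 CPM, against 172.2, 185.0 and 177.9 CPM in Con (-1.23, SE 0.08, adjusted p = 6.19e-07). The ratio of Eif1 to Eif1a counts was 16.7, 16.3 and 21.1 in the libraries labelled KO, against 3.39, 3.16 and 3.14 in those labelled Con, with no overlap. Eif1ax, the X-linked eIF1A gene, was at 145.6, 145.2 and 125.5 CPM against 167.3, 152.9 and 161.2 CPM, and its call (-0.21, adjusted p = 0.0465) was lost without KO replicate 3 or any library labelled Con (adjusted p = 0.0938 to 0.168) and with RLE factors (0.121). Counts of Eif1 are not whole in every library, so part of its reads may be shared with near copies.

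Eif5 encodes the protein that triggers GTP hydrolysis by eIF2 at the start codon. It had 590.2, 666.9 and 793.3 CPM in the libraries labelled KO, against 352.3, 385.2 and 369.4 CPM in those labelled Con, with a wider spread in KO (0.89, SE 0.11, adjusted p = 5.33e-05). Eif5b, which joins the ribosomal subunits, fell to 96.8, 92.4 and 93.9 CPM, against 134.5, 133.1 and 140.1 CPM in Con (-0.53), and Eif6, which keeps the large subunit from joining early, to 104.9, 116.6 and 108.6 CPM, against 147.3, 146.1 and 145.6 CPM in Con (-0.41). Neither gene had overlapping groups. Eif1ad, named for an eIF1A-like domain, overlapped between the groups, and its value of 0.27 (adjusted p = 0.0415) turned to -0.09 with library size only and lost its call without any library except KO replicate 3 and Con replicate 1 (adjusted p = 0.0712 to 0.142).

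The subunits of eIF2 and of its exchange factor eIF2B were lower by small amounts. Eif2s1, the alpha subunit that the stress kinases phosphorylate, had 128.9, 137.2 and 133.7 CPM in the libraries labelled KO, against 179.1, 170.0 and 175.6 CPM in those labelled Con (-0.39, SE 0.07, adjusted p = 0.000684). Eif2s2, the beta subunit, was at -0.26 (adjusted p = 0.0225), a call lost without any 1 library other than KO replicate 2 (adjusted p = 0.0542 to 0.0928). Eif2s3x, the gamma subunit gene on the X chromosome (-0.14, adjusted p = 0.111), and Eif2a, a separate factor that can bring initiator tRNA (-0.06, adjusted p = 0.467), did not pass. Of 4 eIF2B genes 3 fell, where 42.4% of all tested genes were lower: Eif2b3 (-0.56), Eif2b2 (-0.34) and Eif2b5 (-0.31), with 14.0 to 74.6 CPM in the libraries labelled KO and 22.6 to 96.7 CPM in those labelled Con. Eif2b1 was at -0.13 (adjusted p = 0.213).

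The eIF2 kinase genes showed the widest split of any family here. Eif2ak4 (27103), which encodes GCN2, had the lowest log2 fold change of all 77 genes. It was at 16.9, 17.8 and 17.4 CPM in the libraries labelled KO, against 59.4, 62.0 and 65.4 CPM in those labelled Con, a 3.59-fold lower level (-1.84, SE 0.09, adjusted p = 1.06e-07). Eif2ak1 (15467), the heme-regulated kinase, had 186.8, 181.1 and 209.8 CPM against 82.0, 90.2 and 87.4 CPM, a 2.23-fold higher level (1.15, SE 0.09, adjusted p = 1.44e-06). Neither gene had overlapping groups, and both calls held with library size only (-2.20 and 0.80). The ratio of Eif2ak1 to Eif2ak4 counts was 11.03, 10.2 and 12.1 in the libraries labelled KO, against 1.38, 1.46 and 1.34 in those labelled Con. The erythroid markers, of cells in which Eif2ak1 is best known, took 1.49% to 2.16% of counts in KO and at most 0.024% in Con, and their part in this rise was not tested.

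**Figure D4:**
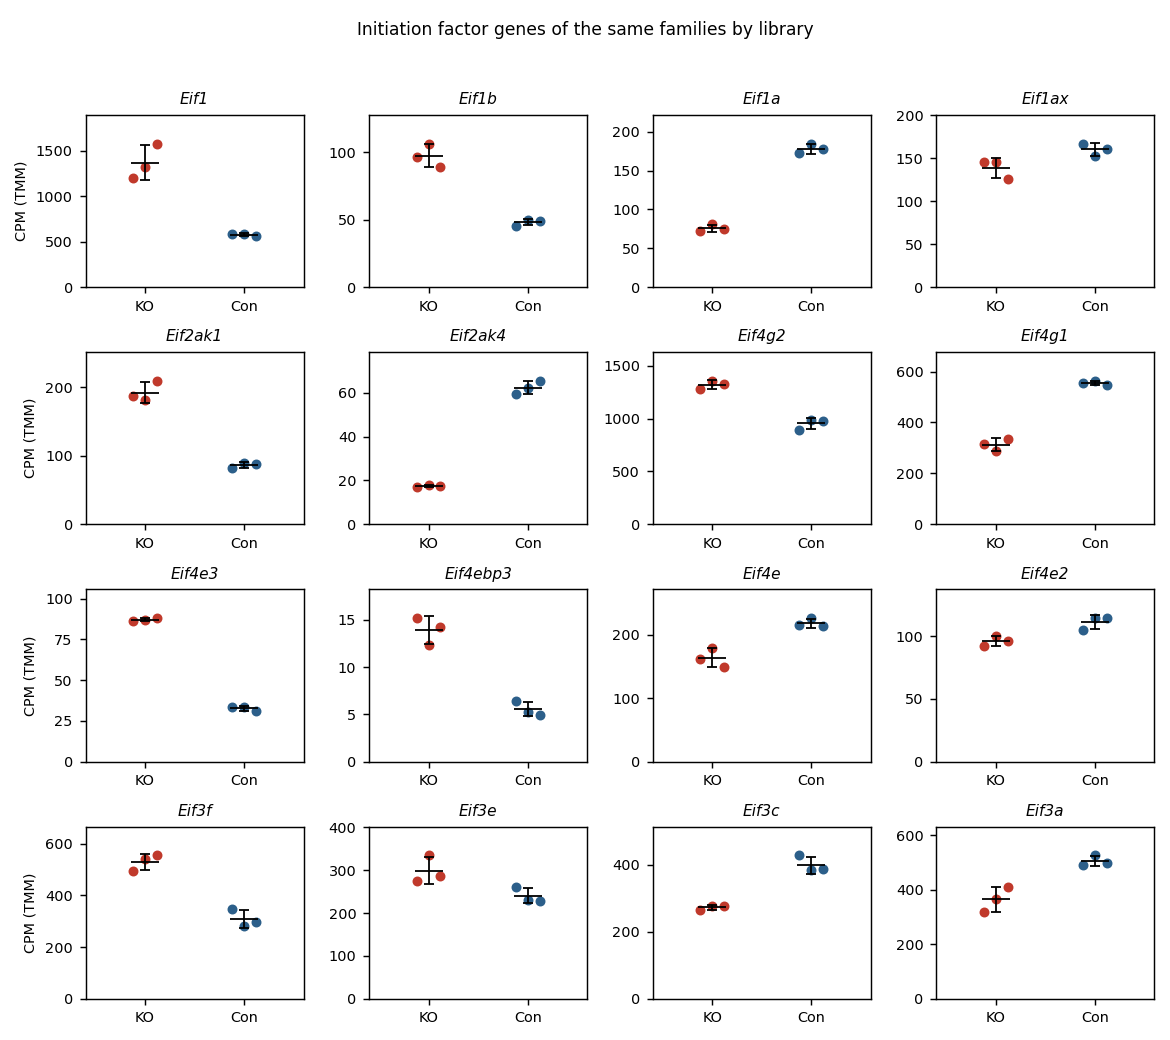
CPM (TMM-scaled) in each library for 16 initiation genes of the eIF1, eIF2 kinase, eIF4 and eIF3 families, with KO left and Con right in each panel; the tick and bar are the mean and SD over 3 libraries. Eif1, Eif1b, Eif2ak1, Eif4g2, Eif4e3, Eif4ebp3, Eif3f and Eif3e are higher in KO and the other 8 lower, with no overlap in any panel; the rise of Eif3e turns to -0.041 with library size only.

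eIF3, the large scaffold that holds the small subunit and the messenger RNA, changed unevenly among its subunits. Of 11 genes tested 3 fell (27.3%, against 42.4% of all tested genes), 4 rose (36.4%, against 39.6%) and 4 did not pass, with a median of -0.03. The core subunit gene Eif3c had 265.3, 275.6 and 276.2 CPM in the libraries labelled KO, against 428.2, 382.9 and 385.9 CPM in those labelled Con (-0.55, SE 0.08, adjusted p = 0.000136). Eif3a, the largest subunit and the one with the most counts, had 320.1, 365.6 and 411.3 CPM against 490.5, 526.3 and 496.3 CPM (-0.46, SE 0.10, adjusted p = 0.00197). Eif3d, a cap-binding subunit, was at -0.39 (adjusted p = 0.000801). In these 3 genes all libraries labelled KO were the lower ones. Eif3f rose to 493.4, 539.8 and 555.0 CPM, against 347.6, 281.3 and 295.4 CPM in Con (0.78, SE 0.10, adjusted p = 5.93e-05), and was the one eIF3 gene that also passed as higher with library size only (0.42, adjusted p = 0.00479). The ratio of Eif3f to Eif3c counts was 1.86, 1.96 and 2.01 in the libraries labelled KO, against 0.812, 0.734 and 0.766 in those labelled Con.

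Eif3j1 (0.35), Eif3e (0.32) and Eif3m (0.24) also passed as higher, but each turned negative with library size only (-0.0064, -0.041 and -0.12). The calls of Eif3e and Eif3m were lost without Con replicate 2 (adjusted p = 0.05 and 0.117) or Con replicate 3 (0.0572 and 0.11), and that of Eif3m also without KO replicate 2 (0.106). Eif3b (-0.03), Eif3g (0.10), Eif3i (-0.11) and Eif3l (-0.11) did not pass, with adjusted p-values of 0.177 to 0.667. With library size only all of these passed as lower, Eif3g at -0.26 (adjusted p = 0.0261). With RLE factors Eif3b was at 0.0199. Eif3j1 and Eif3j2 are near copies whose reads may be split. Eif3j2, at 0.400 to 1.41 CPM in any library, was too low to be tested.

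The cap-binding proteins also moved apart. Eif4e (13684), the main cap-binding factor, had 162.1, 179.4 and 149.0 CPM in the libraries labelled KO, against 214.6, 226.1 and 213.0 CPM in those labelled Con (-0.41, SE 0.09, adjusted p = 0.00158). Eif4e3 (66892), a related protein known for an unusual mode of cap binding, had 86.2, 86.7 and 88.0 CPM against 33.3, 33.6 and 30.9 CPM. The libraries of each group lay close together, at a 2.67-fold higher level in KO (1.42, SE 0.08, adjusted p = 2.25e-07). Eif4ebp3 (108112), a protein that binds eIF4E and keeps it from eIF4G, rose at a low level, with 15.2, 12.3 and 14.3 CPM against 6.44, 5.27 and 4.96 CPM (1.32, SE 0.17, adjusted p = 5.69e-05). The ratio of Eif4e3 to Eif4e counts was 0.532, 0.484 and 0.591 in the libraries labelled KO, against 0.155, 0.148 and 0.145 in those labelled Con. Eif4e2, a cap-binding protein that represses translation, was at -0.21 (adjusted p = 0.0316), a call lost without KO replicate 1, Con replicate 2 or Con replicate 3 (0.0784 to 0.171) and with RLE factors (0.0988).

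Of the factors that connect the cap to the ribosome, Eif4g1 (208643), the main scaffold, fell to 315.3, 287.4 and 336.5 CPM, against 554.4, 563.8 and 546.8 CPM in Con (-0.83, SE 0.09, adjusted p = 1.22e-05). Eif4g2 (13690), a relative that lacks the eIF4E-binding part, had 1277.0, 1358.9 and 1326.9 CPM against 895.6, 989.1 and 980.9 CPM (0.47, SE 0.08, adjusted p = 0.000558). Its rise was not called with library size only (0.11, adjusted p = 0.245). The ratio of Eif4g2 to Eif4g1 counts was 4.05, 4.73 and 3.94 in the libraries labelled KO, against 1.62, 1.75 and 1.79 in those labelled Con. This ratio also holds the fall of Eif4g1, so it does not show that Eif4g2 rose. The helicase gene Eif4a1 fell to 940.4, 980.2 and 984.2 CPM, against 1131.2, 1170.0 and 1179.5 CPM in Con (-0.26, adjusted p = 0.0113), a call lost without Con replicate 2 (0.0747) or Con replicate 3 (0.0768). Its relative Eif4a3, a part of the exon junction complex, was at 0.35 (adjusted p = 0.0024), a value of -0.0077 with library size only. The helicase cofactors Eif4b (-0.12, adjusted p = 0.213) and Eif4h (0.06, adjusted p = 0.523; -0.30 with library size only) did not pass with TMM scaling. Eif4a3l1, a copy of Eif4a3, stayed at 0.370 CPM or less in each library and was not tested.

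Eif5a, named as an initiation factor but known to act in elongation at difficult peptide bonds, had 1398.3, 1454.8 and 1318.9 CPM in the libraries labelled KO, against 1070.9, 1054.6 and 1015.7 CPM in those labelled Con. All libraries labelled KO were the higher ones (0.41, SE 0.08, adjusted p = 0.00121), but the call was lost with library size only (0.05, adjusted p = 0.604). Late neutrophil markers took 14.6% or more of counts in KO and 0.278% or less in Con. Their part in the rises and falls of these initiation genes was not tested.

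**Figure D5:**
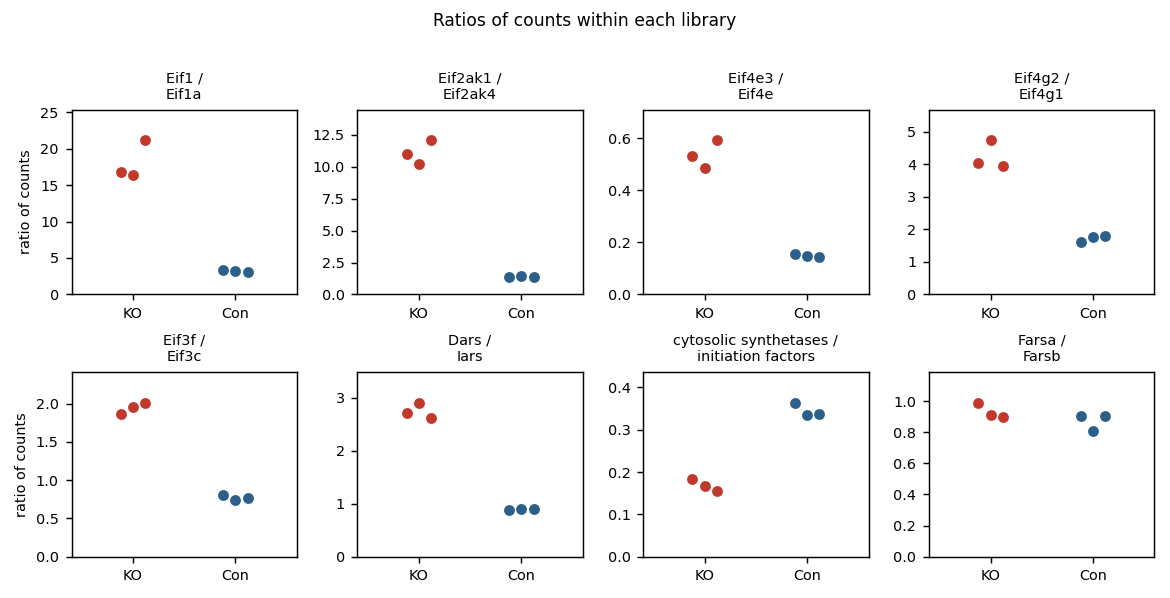
Ratio of counts of 1 gene or class to another within each library, with KO left and Con right in each panel; counts are not corrected for transcript length, so only the change between groups can be read. The groups are apart in 7 of 8 panels, with the ratio of Eif2ak1 to Eif2ak4 at 10.2 to 12.1 in KO and 1.34 to 1.46 in Con, and overlap for Farsa to Farsb. The pairs were chosen after their values were seen, so gaps between the groups follow in part from that choice.

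Among the elongation and termination genes, 6 of 10 tested fell, where 42.4% of all tested genes were lower, and 1 rose. Eef1a1 (13627), which brings charged tRNA to the ribosome and had the most counts of all members, was at 8465.0, 9850.0 and 9589.3 CPM in the libraries labelled KO, against 11352.1, 10084.7 and 10007.9 CPM in those labelled Con. The groups lay side by side without overlap, but the change did not pass (-0.17, 95% interval -0.41 to 0.07, adjusted p = 0.16), and it passed as lower with library size only (-0.53, adjusted p = 0.00175). Eef1a2, the form known from muscle and neurons, had counts of 2, 5 and 0 in the libraries labelled KO, against 1, 7 and 6 in those labelled Con, and was not tested. Eef1g, a subunit of the exchange factor that reloads eEF1A, had 745.3, 747.8 and 762.1 CPM against 1129.5, 966.1 and 971.8 CPM (-0.44, SE 0.09, adjusted p = 0.00122).

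Enzymes that modify the elongation factors were among the steeper changes of this class. Eef2kmt (70511), which methylates eEF2, had 6.54, 7.89 and 6.82 CPM in the libraries labelled KO, against 15.9, 17.6 and 16.7 CPM in those labelled Con (-1.24, SE 0.14, adjusted p = 2.7e-05). Eef2k (13631), the kinase that inhibits eEF2, had 105.2, 98.3 and 113.4 CPM against 82.7, 71.7 and 74.6 CPM. It was higher in all 3 libraries labelled KO (0.47, SE 0.09, adjusted p = 0.000934), a call lost with library size only (0.11, adjusted p = 0.322). The eEF1A methyltransferase genes Eef1aknmt (-0.80, adjusted p = 0.00083) and Eef1akmt4 (-0.75, adjusted p = 0.000949) fell, with 8.49 to 14.1 CPM in KO and 13.8 to 24.0 CPM in Con. Eef2kmt has counts that are not whole in every library, and Eef1akmt4 in 1 library. Eef1akmt1 was at 0.01 (95% interval -0.29 to 0.32, adjusted p = 0.94), or -0.34 with library size only.

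Termination is carried out by the release factors eRF1, encoded by Etf1, which reads the stop codon, and eRF3, encoded by Gspt1. Gspt1 had 190.9, 196.3 and 166.0 CPM in the libraries labelled KO, against 224.6, 238.1 and 237.9 CPM in those labelled Con, all lower in KO (-0.34, SE 0.09, adjusted p = 0.00468). Etf1 had 305.7, 325.4 and 353.1 CPM against 349.3, 347.9 and 340.2 CPM, with overlapping groups (-0.08, 95% interval -0.26 to 0.11, adjusted p = 0.405).

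Genes that act beside these factors were followed in 6 lists of related translation genes, of whose 115 names 81 were in the table and tested. Of these 81 genes 44 fell (54.3%, against 42.4% of all tested genes) and 18 rose (22.2%, against 39.6%). With library size only 59 fell (background 53.6%) and 8 rose (background 29.8%). Among 6 mitochondrial translation factors 5 fell (83.3%, against 42.4% of all tested genes) and none rose (background 39.6%), with a median log2 fold change of -0.70. They include the initiation factor gene Mtif2 (-1.001), the elongation factor genes Gfm1 (-0.82) and Tufm (-0.44), and the release factor gene Mtrf1 (-0.77).

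Genes of eIF2 phosphorylation and the ATF4 pathway had the lowest median of the 6 lists. Of the 26 names listed 18 were in the table, and Atf4 itself was not among these. Of 18 tested 12 fell (66.7%, against 42.4% of all tested genes), 3 rose (16.7%, against 39.6%) and 3 did not pass, with a median log2 fold change of -1.31. Trib3, a pseudokinase induced by ATF4, was at 4.85 ± 0.837 CPM in KO and 50.2 ± 11.8 CPM in Con (-3.37, SE 0.21, adjusted p = 4.41e-07; SD, n = 3 each). Asns, asparagine synthetase, was at 85.3 ± 10.5 and 134.3 ± 30.6 CPM (-0.65, adjusted p = 0.00406). The receptor gene Vldlr, listed as an ATF4 target, was at 1.96 ± 0.437 and 32.6 ± 2.31 CPM (-4.04), and the related factors Atf5 (-1.92) and Atf3 (-1.30) fell. The serine synthesis genes Psat1 (-1.70) and Phgdh (-1.32) fell, as did the amino acid transporter genes Slc7a11 (-2.25), Slc7a5 (-2.07) and Slc3a2 (-1.65). Ddit3, the stress factor CHOP (-0.34, adjusted p = 0.0893), Ddit4 (-0.20, adjusted p = 0.412) and Chac1 (-0.10, adjusted p = 0.778) did not pass. The 3 that rose were Cebpb (1.92), Ppp1r15b, a regulator of the eIF2 phosphatase (1.11), and Eif2ak3, the endoplasmic reticulum stress kinase (0.59), whose call was lost with library size only (0.23, adjusted p = 0.122).

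Around GCN2 itself, 2 partner genes fell as well: Gcn1, the ribosome-bound activator, at 59.0 ± 5.86 CPM in KO and 111.6 ± 9.39 CPM in Con (-0.92), and Impact, an inhibitor that competes for Gcn1, at 31.3 ± 3.92 and 81.8 ± 8.25 CPM (-1.39; SD, n = 3 each). Another list holds genes of mTORC1, the kinase complex that controls eIF4E-binding proteins, with its regulators and other genes of eIF4E control. Of its 15 genes 8 fell (53.3%, against 42.4% of all tested genes) and 5 rose (33.3%, against 39.6%). The median log2 fold change was -0.28. These counts are not limited to parts of the complex itself. The kinase gene Mtor (-0.65) and its partner Rptor (-1.01) fell and the shared subunit gene Mlst8 rose (2.16). Castor1, an arginine sensor, fell by 2.36 on the log2 scale.

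Of the other initiation genes 7 of 17 fell (41.2%) and 6 rose (35.3%), near the background of 42.4% and 39.6% of all tested genes. Denr, a factor of reinitiation, fell (-0.87), as did Larp1, which binds messenger RNAs of the translation machinery (-0.93), and Abce1, which recycles ribosomes (-0.68). Ddx3x, a scanning helicase (0.51), and Paip1, a partner of the poly(A)-binding protein (0.45), rose, calls that were lost with library size only (0.15, adjusted p = 0.156, and 0.10, adjusted p = 0.335). Pabpc1, that binding protein's main gene, was at 1078.7 CPM on average in KO and 1224.9 CPM in Con and did not pass (-0.18, SE 0.10, adjusted p = 0.104, n = 3 each).

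Of the other elongation, termination and rescue genes 9 of 17 fell (52.9%, against 42.4% of all tested genes) and 3 rose (17.6%, against 39.6%). They include 4 of the 6 tested genes of diphthamide, the modified histidine of eEF2, that fell: Dph1 (-1.30), Dph6 (-1.09), Dph5 (-0.80) and Dph2 (-0.75). Dph3, another of them, rose (1.11), and Dph7 did not pass (-0.38, adjusted p = 0.0566). Of the enzymes that make hypusine on eIF5A, Dhps rose (0.63) and Dohh fell (-0.40). Of the 8 partners of synthetases tested, 3 fell (37.5%) and 1 rose (12.5%), against the same background. Pars2, the mitochondrial proline enzyme, outside the membership rule, was at 3.45 ± 1.17 CPM in KO and 10.5 ± 0.822 CPM in Con (-1.59, adjusted p = 0.000136; SD, n = 3 each), while Tarsl2, a second threonine enzyme, rose (0.51, adjusted p = 0.0121), a call lost with library size only (0.15, adjusted p = 0.397).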

How the data were processed

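RNA of 6 bone marrow samples was sequenced from libraries made with a BGI mRNA kit, per the labels. The authors deposited expected counts per gene (estimated counts, not scaled), per the file headers, and 1449 of 9295 genes, 15 members among them, carry a count that is not whole. Aars, Eif1, Eif4e3, Eif5a, Nars2 and Eef2kmt are among these members. An aligner or counter is not given in the sources used here. Since the only genome build listed in the submitters' processing notes, GRCh38, is human while gene IDs are those of mouse, no gene coordinates are given. Rounded counts of the KO and Con libraries entered the robust two-sided quasi-likelihood test of edgeR 4.0.16 (R 4.3.3), with TMM scaling, filterByExpr and no covariate, over 8358 genes, with Benjamini-Hochberg adjustment and a threshold of 0.05. Each adjusted p in the text is from that test unless an alternative is named. The script was checked on simulated counts in which few genes changed, with rises and falls in balance. That check does not cover the scaling where most genes change, as they did here. A TMM-scaled level of 1 CPM stands for 7.77 to 13.2 counts, depending on the library, and intervals at 95% are those of the fit. Alternatives were DESeq2 1.42.0, voom of limma 3.58.1, other scalings and filters, unrounded counts, a replicate block, each library left out and Con replicates 2 and 3 summed. Promoter sequences and coordinates are from RefSeq windows of GRCm38.p6, matched by gene ID; part of this sequence is not reported here. The members and lists were chosen with earlier results of these data known. The naming rule took, per role, the member with the most counts, the 3 largest changes past the threshold and up to 3 called in the minority direction (40 genes), and allowed members that did not pass. Other genes, and the ratios, were chosen after their values were seen.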

Additional observations from a re-analysis of the deposited data

How the results depend on the processing

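Of the 60 members called, 46 kept their direction and their side of the threshold in each of 16 alternatives, all 15 cytosolic synthetases that fell among them. Of the others, 9 kept their direction and lost the call somewhere, and 5 (Eif1ad, Eif3e, Eif3j1, Eif3m and Eif4a3) turned sign with library size only. That scaling cut the members called as higher to 7, and gave log2 fold changes of -0.088 for Eif1ad, -0.041 for Eif3e, -0.0064 for Eif3j1, -0.12 for Eif3m, -0.0077 for Eif4a3, -0.27 for Dars, -0.34 for Eef1akmt1, -0.26 for Eif3g and -0.30 for Eif4h. By its construction it moves every gene by a like amount. Other values with a turned sign belonged to members that did not pass. Upper-quartile factors gave -0.00024 for Dars, -0.075 for Eef1akmt1 and -0.032 for Eif4h. RLE factors gave 0.0199 for Eif3b and 0.044 for Hars, DESeq2 gave 0.0200 for Eif3b and 0.044 for Hars, no filter gave -0.0048 for Eef1akmt1 and the stricter filter 0.021 for Hars. With 1 library left out, Eef1akmt1 ran between -0.10 and 0.066 and Hars between -0.0401 and 0.047. The share of counts taken by the members was 0.877 percentage points lower in KO (-0.877), -0.226 against TMM-scaled totals and -0.512 without Eef1a1, and -0.95 to -0.743 with 1 library left out. Members called then numbered 52 to 58 and cytosolic synthetases 15, where 6485 to 6855 of all genes were called. Same-numbered libraries did not deviate together (r of -0.00166, 0.0277 and -0.00374 for numbers 1, 2 and 3), and not every library correlated best with its own number. With the replicate number as a block, 59 members and 6766 genes were called, and the call lost was that of Eif1ax (adjusted p = 0.059). Each other cause was not tested. Genes at a few CPM rest on few counts, which limits what can be told of them.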
